A study of Mus musculus with 4 samples.

Results

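Interferon regulatory factors (IRFs) are transcription factors that share a DNA-binding domain and bind GAAA-containing elements in the promoters of interferon and interferon-stimulated genes. The 8 genes described here, Irf1, Irf2, Irf3, Irf4, Irf5, Irf7, Irf8 and Irf9, were chosen by their symbols from the 54532 genes of the count table, by a rule that uses no measured value.

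RNA-seq libraries were made from bulk alveolar macrophages (AMs), which live in the airspaces of the lung, of female mice labelled wild type. The 2 Control libraries came from mice that had received no 4T1 cells. The 2 Tumor libraries came from mice taken 2 weeks after inoculation with 4T1, a mouse mammary carcinoma line that spreads to the lung, at a stage that the study calls the pre-metastatic niche. The study sequenced AMs to characterize them at this stage, as part of its work on the aryl hydrocarbon receptor, AHR. This receptor is switched on by small molecules and then binds DNA. No genetic allele or drug distinguished the groups, and the study elsewhere stains AMs as CD45+ CD11b- CD11c+ SiglecF+ cells, while for these libraries its methods say only that AMs were purified. Nothing in the labels says that the 2 libraries of a group came from separate mice, so p-values measure only the spread between these libraries, which may be technical.

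IRF3 and IRF7 are phosphorylated downstream of nucleic acid sensors and switch on the type I interferon genes. Secreted interferon then acts through JAK kinases on STAT proteins, which join IRF9 in the complex ISGF3 and bind the interferon-stimulated response element (ISRE). IRF1 activates and IRF2 mostly represses ISRE-bearing genes, IRF5 drives inflammatory cytokine genes, and IRF4 and IRF8 bind composite elements together with PU.1 and set the identity of myeloid and lymphoid cells. In the lung, AMs are among the first cells to meet inhaled virus and can produce interferon.

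The sequences that bear on these genes are promoter stretches from RefSeq on build GRCm38.p6, where all 8 IRF genes had an entry, 11 windows in all, each running from 250 bases before to 50 bases after an annotated start. Each window was searched on both strands for 5 elements, namely the ISRE (GAAA, any 2 bases, GAAA), the ETS-IRF composite element EICE (GGAA, any 2 bases, GAAA), the interferon-gamma-activated sequence GAS that STAT dimers bind (TTC, any 3 bases, GAA), the NF-kB element (GGGA, any 2 bases, TTCC) and the core of the xenobiotic response element, XRE, that AHR binds (GCGTG). These stretches were chosen because they hold an interferon-related element or, for Irf7, because this gene rose most. Capitals mark the bases of an element, and each sequence runs 5′ to 3′ on the strand of its gene. The Irf7 stretch lies at chr7:141266482-141266674 on the minus strand, just upstream of the annotated gene, and holds none of the 5 elements. The Irf1 stretch is chr11:53769878-53769977 on the plus strand with 1 GAS at bases -90 to -82 from the start. The Irf8 stretch is chr8:120736150-120736249 on the plus strand with 2 GAS elements. The Irf2 stretch is chr8:46739495-46739563 on the plus strand, where an EICE and an ISRE overlap and a GAS follows. These Irf2 EICE and ISRE bases also lie in an annotated exon of Gm16675, a noncoding transcript on the opposite strand, upstream of the Irf2 start.
Irf7: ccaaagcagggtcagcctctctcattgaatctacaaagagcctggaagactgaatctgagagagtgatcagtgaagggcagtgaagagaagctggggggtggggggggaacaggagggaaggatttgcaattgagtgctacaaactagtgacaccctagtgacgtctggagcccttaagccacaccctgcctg
Irf1: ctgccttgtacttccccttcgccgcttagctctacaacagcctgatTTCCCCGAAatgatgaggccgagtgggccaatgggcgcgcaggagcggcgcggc
Irf8: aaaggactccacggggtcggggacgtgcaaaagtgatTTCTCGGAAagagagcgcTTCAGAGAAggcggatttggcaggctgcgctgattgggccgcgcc
Irf2: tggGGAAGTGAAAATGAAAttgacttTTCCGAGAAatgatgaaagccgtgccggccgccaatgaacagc

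Among the 8 genes, the ISRE and the EICE were found only for Irf2, against 3.44% and 2.72% of the 32851 promoters in the table. A GAS was found for Irf1, Irf2 and Irf8, against 8.30% of promoters, and since these letters read the same on both strands each place is counted once. An XRE core was found for Irf1, Irf3, Irf4 and Irf8, against 32.4% of promoters, and the NF-kB letters for none of the 8, against 1.47%. The windows of Irf5, Irf7 and Irf9 held none of the 5. An IRF gene was counted if any of its windows held the element, whereas the percentages are per window, so the units differ. A match of letters is a description and not a binding site, and a missing match says only that these letters are not in these bases.

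Depth was even, with 16167147 to 19205737 counts per library, the 20 most abundant genes holding 9.14% to 10.1% of a library, and 3 counts corresponding to 0.153 to 0.19 CPM (counts scaled to the TMM-scaled library size). Of the AM markers, Chil3, Mrc1, Siglecf, Marco and Itgax were present in every library, but presence alone does not show how pure the AMs were. The summed level of 14 AM markers was 16370 and 16500 CPM in Control and 12210 and 12340 CPM in Tumor, with 12 of the 14 called lower. Markers of other cells moved with the groups as well. The 10 neutrophil markers summed to 113.6 and 113.4 CPM in Control and to 4386 and 4369 CPM in Tumor, the 6 eosinophil markers to 0.693 and 0.823 against 2945 and 2918 CPM, the 6 basophil and mast cell markers to 0.266 and 0.316 against 74.9 and 63.9 CPM, and the 8 hepatocyte markers to 0.0533 and 0.19 against 645.5 and 652.5 CPM. All 30 of these genes were called higher in Tumor. In both Control libraries 7 of the 8 hepatocyte markers, Alb among them, 4 of the 6 basophil and mast cell markers and 1 of the 6 eosinophil markers were at 0. The 8 T cell markers summed to 5.43 and 5.06 CPM in Control and 17.9 and 18.6 CPM in Tumor (5 of 7 tested higher), the 6 NK cell markers to 1.49 and 1.77 against 6.29 and 6.11 CPM (3 of 3 higher), the 10 monocyte and interstitial macrophage markers to 355.8 and 358.2 against 262.4 and 242.8 CPM (3 higher and 5 lower) and the 8 epithelial markers to 504.5 and 531.1 against 322.8 and 328 CPM (2 higher and 4 lower of 7 tested). The part that other cells had in the IRF differences was not tested, and in bulk samples fewer cells of a type and less RNA per cell cannot be told apart.

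Of the 8 IRF genes, 4 rose in Tumor (Irf2, Irf4, Irf7 and Irf9), 3 fell (Irf1, Irf5 and Irf8) and Irf3 was not called by the quasi-likelihood test of edgeR at an adjusted p under 0.05, whereas scaling on AM markers gave 7 higher and 0 lower. Of the 14256 genes tested, 53.8% were called, 29.0% higher and 24.8% lower, so a call as such is common in this comparison. In all 8 IRF genes the 2 Control values did not overlap the 2 Tumor values, 5 with Tumor above and 3 with Tumor below, against 75.1% of tested genes (39.3% above and 35.8% below). Under TMM scaling only Irf7 and Irf9 rose at least 2-fold, against 12.9% of tested genes, and no IRF gene fell 2-fold, against 3.01%. The median log2 fold change of the 8 was 0.33, beside 0.02 over all genes tested.

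**Figure D1:**
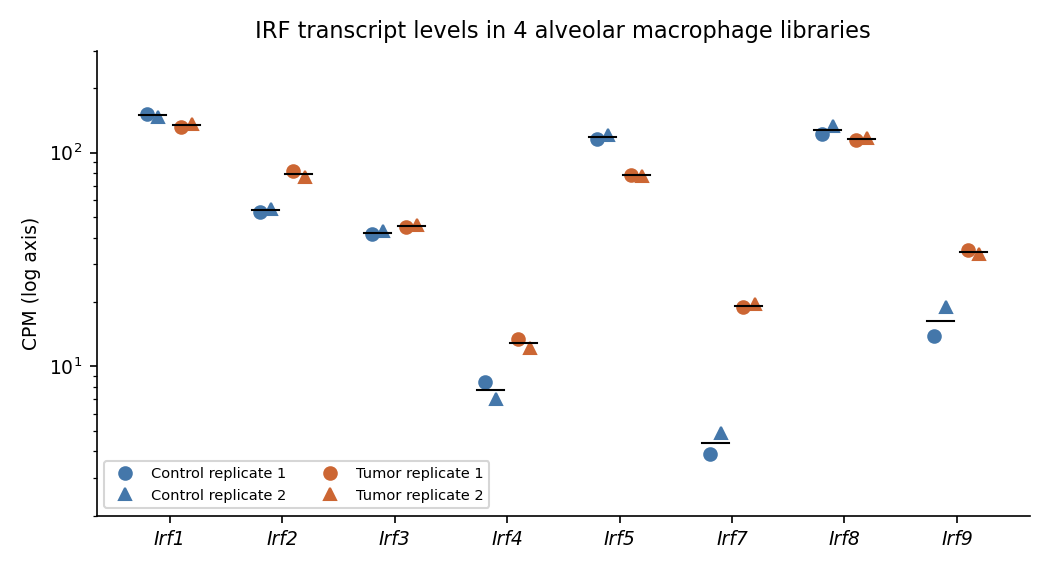
Level of each IRF gene in CPM (log axis) in the 2 Control libraries (blue) and the 2 Tumor libraries (orange), with circles for replicate 1, triangles for replicate 2 and a bar at the group mean. Irf7 and Irf9 show the widest gap between groups, from 4.38 to 19.3 CPM and from 16.4 to 34.4 CPM.

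Irf7, the inducible amplifier of type I interferon production, showed the largest change of the family. It lies at chr7:141262706-141266481 on the minus strand (GRCm38, ENSMUSG00000025498) and had 73 and 77 counts in Control and 328 and 385 counts in Tumor, which is 3.89 and 4.87 CPM against 18.9 and 19.6 CPM. Both Tumor libraries stood well above both Control libraries. The Tumor values lay close together, while the Control values differed more for their level (SD 0.695 on a mean of 4.38 CPM). The rise was 4.42-fold, a log2 fold change of 2.15 ± 0.14 (SE, n = 2 per group, edgeR adjusted p = 4.21e-13), above that of 92.3% of tested genes. Plasmacytoid dendritic cells are rich in Irf7, and the 8 markers of that cell summed to 136.4 and 133 CPM in Control and 112.8 and 118.8 CPM in Tumor, with 0 higher and 2 lower among 5 tested. Most of that sum was Runx2, at 109 and 105.2 against 93.1 and 99.8 CPM, and Tcf4, at 23.4 and 23.1 against 15.9 and 15.2 CPM, which were the 2 lower genes. Siglech, a defining marker of those cells, was at 1.54 and 1.33 CPM in Control and 1.33 and 1.17 CPM in Tumor.

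Irf9, the DNA-binding subunit of ISGF3, had 261 and 298 counts in Control and 609 and 662 counts in Tumor, or 13.9 and 18.9 CPM against 35.1 and 33.7 CPM. The Control libraries differed more from each other than the Tumor libraries did, but their higher value remained well under both Tumor values. The rise was 2.12-fold (log2 fold change 1.08 ± 0.11, edgeR adjusted p = 1.00e-09). The gene lies at chr14:55603571-55610030 on the plus strand (ENSMUSG00000002325), and 2.28% of its exonic bases are shared with Rnf31 on the same strand.

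Irf3, the constitutive sensor-activated member that starts interferon transcription, differed least under TMM scaling, though not with total counts or on the AM marker scale. It lies at chr7:44997648-45002848 on the plus strand (ENSMUSG00000003184) and was at 41.6 and 43 CPM in Control and 44.8 and 45.8 CPM in Tumor. The groups did not overlap, though all 4 values lay close together. The fold was 1.07 with a 95% interval from 0.973 to 1.18 (edgeR adjusted p = 0.222), so that a rise of up to 1.18-fold lies inside the interval. Scaled by total counts, Irf3 was called higher, at a log2 fold change of 0.17 (adjusted p = 0.042). Per unit length, the ratio of Irf3 to Irf7 in TPM (counts scaled to gene length and then to library size) went from 11.7 and 9.67 in Control to 2.6 and 2.56 in Tumor.

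Irf1 and Irf2, the activator and the repressor that compete for the same elements, moved apart under TMM scaling. Irf2 (chr8:46739732-46847458, plus strand, ENSMUSG00000031627) was at 52.8 and 54.5 CPM in Control and 81.9 and 76.6 CPM in Tumor. Both Tumor values exceeded both Control values by more than the spread within either group, a 1.48-fold rise (log2 fold change 0.56 ± 0.06, edgeR adjusted p = 2.19e-09). Irf1 (chr11:53770014-53778374, plus strand, ENSMUSG00000018899) was at 152.5 and 146.7 CPM in Control and 132.4 and 136.3 CPM in Tumor. All Control values lay above the Tumor values, but by only 1.11-fold (log2 fold change -0.16 ± 0.04, edgeR adjusted p = 0.00133), and this call was lost when libraries were scaled by total counts (adjusted p = 0.0555) and turned to a rise on the AM marker scale (log2 fold change 0.39, adjusted p = 8.68e-11). In TPM, the ratio of Irf1 to Irf2 was 5.37 and 5.01 in Control and 3.01 and 3.31 in Tumor.

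Irf5, which drives inflammatory cytokine genes in macrophages, showed the only fall of more than 1.2-fold in the family under TMM scaling. It lies at chr6:29526625-29541871 on the plus strand (ENSMUSG00000029771) and had 2168 and 1902 counts in Control and 1364 and 1536 counts in Tumor, or 115.5 and 120.4 CPM against 78.7 and 78.2 CPM. The Tumor libraries were nearly equal and both were far under the Control libraries. The level was 1.5-fold lower (log2 fold change -0.59 ± 0.05, edgeR adjusted p = 1.03e-11), below that of all but 9.71% of tested genes. This call was lost on the AM marker scale (log2 fold change -0.05, edgeR adjusted p = 0.386). On the opposite strand, Tnpo3 shares 411 exonic bases, 14.1% of those of Irf5, and had 1598 and 1402 counts in Control and 1313 and 1472 in Tumor. Whether the counting used strand is not given in the sources used here.

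Irf4 and Irf8, the pair that partners PU.1, also moved in opposite directions under TMM scaling. Irf4 (chr13:30749226-30766976, plus strand, ENSMUSG00000021356) was, in TPM, among the least abundant of the family, with 159 and 111 counts in Control and 232 and 240 in Tumor, or 8.47 and 7.02 CPM against 13.4 and 12.2 CPM. The Tumor libraries were both higher, by 1.64-fold (log2 fold change 0.71 ± 0.14, edgeR adjusted p = 0.000113). Irf8 (chr8:120736358-120756694, plus strand, ENSMUSG00000041515) was at 122.5 and 133 CPM in Control and 114.1 and 117.7 CPM in Tumor. The Control libraries differed from each other by more than the gap between the nearest values of the groups, and the call was a slight one (log2 fold change -0.14 ± 0.04, edgeR adjusted p = 0.00981). It was lost without Control replicate 2 (-0.10, adjusted p = 0.141), with total counts as library sizes (-0.07, adjusted p = 0.178) and in the Wald test of DESeq2 (-0.14, adjusted p = 0.0589), and it turned to a rise when libraries were scaled on AM markers (0.40, adjusted p = 2.09e-10).

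Both genes also mark other cells of the lung. Plasma cells and the conventional dendritic cells of type 2 use Irf4, and those of type 1 depend on Irf8. The 8 B and plasma cell markers summed to 10.2 and 9.93 CPM in Control and 14.5 and 15.7 CPM in Tumor, with 4 higher and 1 lower among 7 tested. The lower gene was Jchain, the plasma cell marker, at 2.72 and 2.59 CPM in Control and 0.404 and 0.458 CPM in Tumor. Of the type 2 dendritic cell markers 4 of 7 tested were higher and 2 lower, with Mgl2 at 1.81 and 2.21 CPM against 20.8 and 21.9 CPM and Cd209a at 0.586 and 1.08 against 13.6 and 13.4 CPM, but Tnip3 at 12.9 and 14.1 against 5.71 and 7.43 CPM and Clec10a not called, while the list's sum went from 1423 and 1437 to 1092 and 1047 CPM, most of it Itgax, which AMs express. Of the type 1 markers 4 of 8 were higher and 2 lower, with Flt3 at 0.479 and 0.316 CPM against 3.63 and 4.58 CPM but Clec9a, a defining marker, at 5.38 and 5 CPM against 2.48 and 2.19 CPM and Xcr1 not called, and the list's sum went from 633.8 and 650 CPM to 497.1 and 489.7 CPM, most of it Wdfy4. Jchain, Tnip3, Clec10a, Clec9a and Xcr1 were named after their values were seen. The part of these cells in the Irf4 and Irf8 values was not tested.

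**Figure D2:**
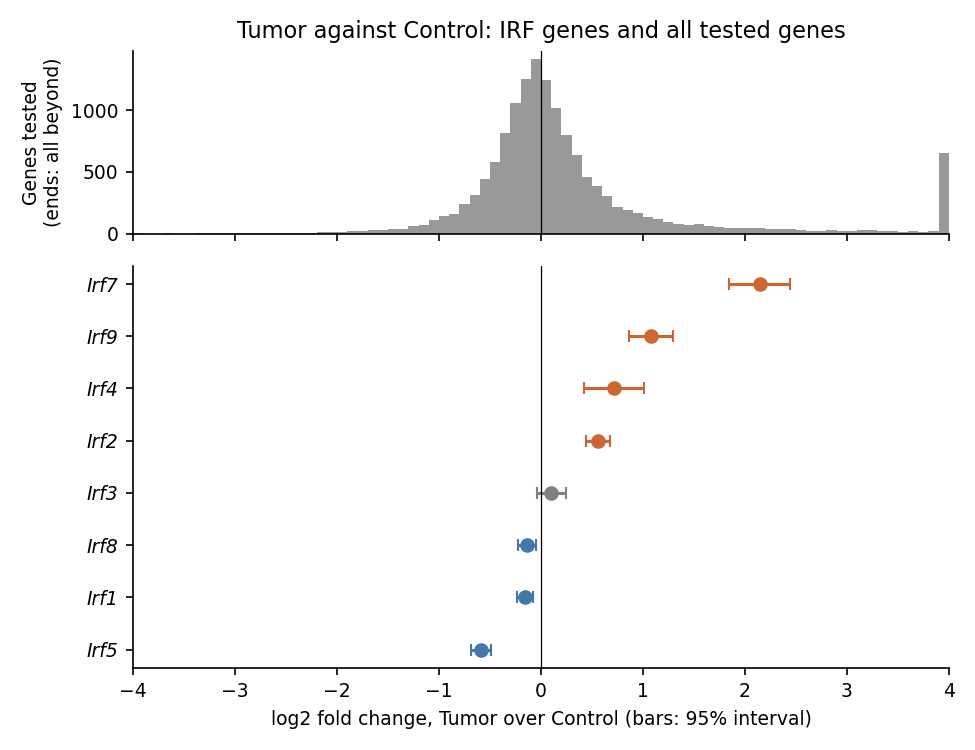
Upper panel, log2 fold change (Tumor over Control) of all 14256 tested genes, with values beyond the axis gathered in the end bars. Lower panel, the 8 IRF genes with 95% intervals from the edgeR fit, orange for higher, blue for lower and grey for not called, from Irf7 at 2.15 down to Irf5 at -0.59.

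Compared per unit length, the family was led by 3 genes. In mean TPM, Control AMs held Irf5 at 128.5 ± 3.25 (SD, n = 2), Irf1 at 119.1 ± 3.69, Irf8 at 57.3 ± 3.10, Irf3 at 38.9 ± 0.768, Irf2 at 23 ± 0.422, Irf9 at 9.62 ± 2.02, Irf4 at 5 ± 0.68 and Irf7 at 3.67 ± 0.569. This order was the same in both Control libraries. In Tumor the order was Irf1 at 107.8 ± 2.62 TPM, Irf5 at 86.2 ± 0.0221, Irf8 at 52.4 ± 1.37, Irf3 at 42 ± 0.827, Irf2 at 34.2 ± 1.49, Irf9 at 20.4 ± 0.514, Irf7 at 16.3 ± 0.473 and Irf4 at 8.33 ± 0.502, again in both libraries. Irf5 and Irf1 changed places at the top, and Irf7 left the last place to Irf4. The gaps of neighbours in the order exceeded their SDs throughout, but the closest pairs depended on the gene length. With the longest transcript as length Irf1 was first in all 4 libraries, and in Control replicate 2 Irf7 then lay above Irf4, so these neighbours in Control are not set apart by the data.

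The summed level of the 8 genes changed little while its make-up shifted. It was 381 and 389.1 TPM in Control and 365.7 and 369.6 TPM in Tumor. The share of Irf5 went from 33.1% and 33.6% to 23.6% and 23.3%, and that of Irf1 from 32% and 29.9% to 29% and 29.7%. The share of Irf2 went from 5.95% and 5.98% to 9.64% and 8.97%, of Irf9 from 2.15% and 2.84% to 5.67% and 5.42%, and of Irf7 from 0.858% and 1.05% to 4.36% and 4.5%. Irf8 held its place, at 14.5% and 15.3% against 14.1% and 14.5%. The TPM ratio of Irf8 to Irf4 was 10.1 and 13.2 in Control and 5.92 and 6.69 in Tumor.

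**Figure D3:**
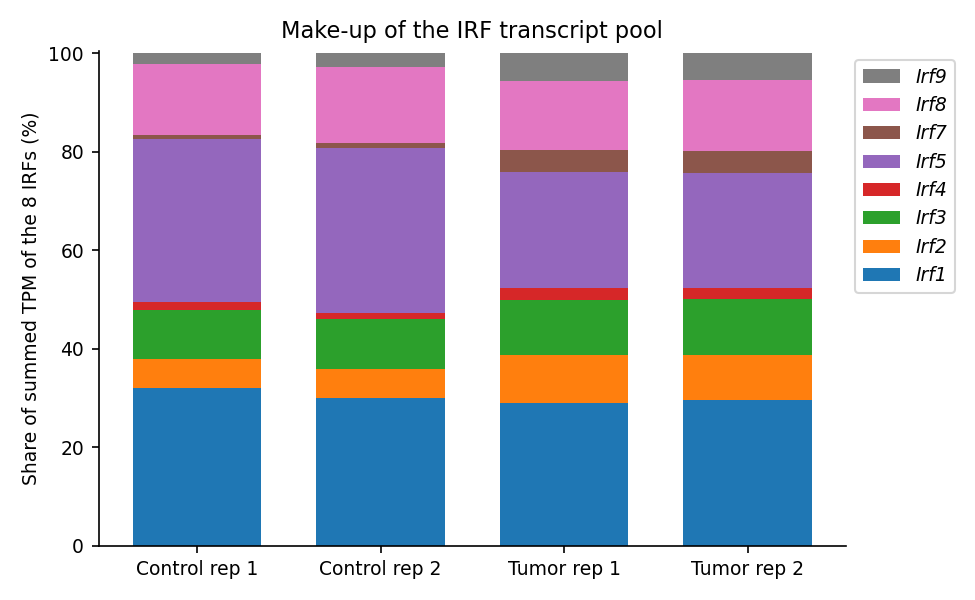
Share of each IRF gene in the summed TPM of the 8 genes (percent, stacked to 100) in each library. The Irf5 band narrows from 33.1% and 33.6% in Control to 23.6% and 23.3% in Tumor, and the Irf2, Irf7 and Irf9 bands widen.

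The genes whose profile over the 4 libraries was nearest to that of Irf7 and Irf5 were sought among the 9560 tested genes that averaged 100 counts or more, by the distance between log2 CPM values centred on each gene's mean. For Irf7 these were Gm17017, an antisense transcript (distance 0.0686), Dedd2 (0.13) and the MHC class II gene H2-Eb1 (0.18), the last with 558 and 522 counts in Control and 2108 and 2483 in Tumor. For Irf5 they were Smpdl3b (0.00485), Ddx21 (0.02) and the pseudogene Eif4a-ps4 (0.021). The distances were larger for Irf7 than for Irf5. Of tested genes, however, 47 lay in the narrow band of log2 fold change that holds Irf7 and 442 in that of Irf5. Irf7 also had fewer counts, so the distances of these genes cannot be compared. With 4 libraries in 2 groups the measure is mostly that of the fold change, and it is a description.

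Upstream of the IRFs, the interferons themselves were scarcely detected. Of 21 interferon genes, 17 were at 0 counts in all 4 libraries, none passed the filter on low counts, and the highest count in any library was 12. Ifnb1, the first interferon gene that IRF3 switches on, had 2, 0, 0 and 2 counts in Control replicates 1 and 2 and Tumor replicates 1 and 2, and Ifng had 0, 0, 0 and 1. A count of 0 allows a level of up to 0.153 to 0.19 CPM at these depths, counting error only, so a change in interferon transcripts was not detectable here.

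Interferon receptors were higher. Of the 6 receptor genes 5 rose and Il10rb was not called, where 29.0% of all tested genes were higher. The type I receptor chains Ifnar1 and Ifnar2 went from 58.9 and 63.1 CPM to 95.9 and 92.3 CPM and from 26.5 and 24.2 CPM to 51 and 49.8 CPM, log2 fold changes of 0.63 ± 0.05 and 0.99 ± 0.08. Ifngr1, the ligand-binding chain for interferon gamma, rose 1.81-fold and its partner Ifngr2 1.14-fold (edgeR adjusted p = 0.0101). Ifnlr1, the receptor for interferon lambda, had 0 and 0 counts in Control and 35 and 25 in Tumor, at least 6.70-fold higher. The kinases and STATs that carry the signal to IRF9 were mixed, with Jak2 rising 2.50-fold and Jak1 1.26-fold, Tyk2 falling 1.13-fold (but at 0.36 on the log2 scale when AM markers set the scale) and Stat2, a partner of IRF9 in ISGF3, up by 0.22 ± 0.08 on the log2 scale (edgeR adjusted p = 0.0177). The Stat2 call was slight and was lost in the Wald test of DESeq2 (adjusted p = 0.113), as was that of Ifngr2 (adjusted p = 0.0804).

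The sensors, adaptors and kinases that activate IRF3, IRF5 and IRF7 were mostly lower. Of 29 such genes 18 fell, 4 rose and 7 were not called, with a median log2 fold change of -0.28. Of all tested genes 24.8% were lower and 29.0% higher. When libraries were scaled on AM markers, however, 17 of the 29 were higher and 5 lower. The largest falls were those of Mb21d1, which encodes the DNA sensor cGAS, from 20.4 and 21.7 CPM to 7.79 and 7.43 CPM, of Ikbke, an IRF3 and IRF7 kinase, from 39.7 and 42.5 to 17.5 and 18.2 CPM, and of Slc15a3, a lysosomal transporter, from 819.6 and 810.6 to 435 and 436.4 CPM. Tbk1, the principal IRF3 kinase, was 1.48-fold lower (log2 fold change -0.56 ± 0.04, but -0.02 with adjusted p = 0.658 on the AM marker scale) and Myd88, the Toll-like receptor adaptor, 1.16-fold lower. Mavs, the mitochondrial adaptor of RNA sensors, was not called (log2 fold change -0.08 ± 0.05, edgeR adjusted p = 0.16). The largest rises were those of Tmem173, which encodes STING, at 0.40 ± 0.07 on the log2 scale, the RNA sensor Ddx58 (RIG-I) at 0.38 ± 0.07 and the kinase Irak4 at 0.28 ± 0.07.

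Among 11 DNA-binding partners and coactivators of IRFs, 6 rose and 2 fell, where 29.0% of all tested genes were higher and 24.8% lower. The AP-1 genes Jun and Jund rose 2.41-fold and 1.61-fold and the coactivator Crebbp 1.42-fold. Spi1, which encodes PU.1, was at 497.2 and 513.5 CPM in Control and 453.2 and 469 CPM in Tumor, 1.10-fold lower, and Batf3, a partner in type 1 dendritic cells, was 1.65-fold lower at 3.05 against 1.84 CPM (edgeR adjusted p = 0.025, and 0.163 in the Wald test of DESeq2). On the AM marker scale Spi1 was higher, at 0.41. Of 12 inhibitors and regulators 8 rose and none fell. Foxo3, a repressor of Irf7 transcription, rose from 35 and 36.6 CPM to 106.3 and 113.6 CPM, Eif4ebp1, whose product restrains translation including that of Irf7 mRNA, rose 1.48-fold, and the IRF2-binding corepressor genes Irf2bpl and Irf2bp2 rose 1.99-fold and 1.16-fold. Those regulators thus rose beside Irf7 and Irf2 transcripts in the same libraries.

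Downstream, 24 interferon-stimulated genes were examined. Of 22 tested, 10 rose, 1 fell and 11 were not called, with a median log2 fold change of 0.70. Among all tested genes 29.0% were higher and 24.8% lower. On the AM marker scale 19 of the 22 were higher and 1 lower. The largest rises at a mean of 100 counts or more were those of 3 genes of the oligoadenylate synthetase family, with Oas2 at 1.6 and 1.14 CPM in Control and 20.7 and 19.8 CPM in Tumor, Oas3 at 1.76 and 1.58 against 17.8 and 18.6 CPM and Oasl2 at 0.959 and 1.012 against 8.3 and 8.09 CPM. Isg15, a ubiquitin-like modifier, rose 2.65-fold, at 2.24 and 2.09 CPM against 5.48 and 6.01 CPM. Other genes of the kind were not called, among them Ifit1 at a log2 fold change of 0.14 (edgeR adjusted p = 0.763) and Rsad2 at -0.01 (adjusted p = 0.984), named after their values were seen. Cxcl10, a chemokine gene that interferons induce, fell from 29 and 29.5 CPM to 9.52 and 10.2 CPM.

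**Figure D4:**
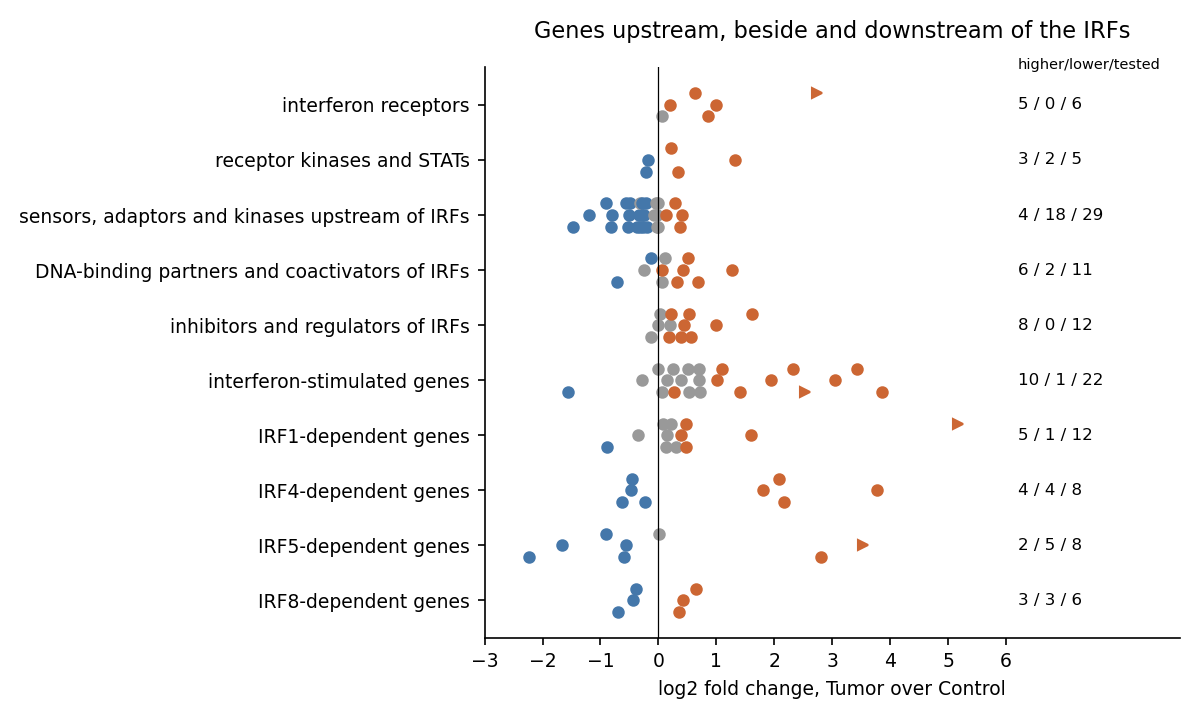
log2 fold change (Tumor over Control) of each tested gene in 10 lists of genes upstream, beside and downstream of the IRFs, orange for higher, blue for lower and grey for not called, with triangles at the lower bound where both Control libraries were at 3 counts or fewer. Under TMM scaling the sensors lie mostly left of 0 (18 of 29 lower, but 5 of 29 on the AM marker scale) and the receptors right of it (5 of 6 higher).

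Genes listed from general knowledge as dependent on 1 IRF did not move as a block with that IRF. Among all tested genes 29.0% were called higher and 24.8% lower under TMM scaling. Beside the slight fall of Irf1, 5 of its 12 dependent genes rose and 1 fell, but on the AM marker scale 10 were higher and 0 lower. Nos2, the inducible nitric oxide synthase, had 1 and 0 counts in Control and 118 and 152 in Tumor, at least 35.9-fold higher, Ciita, the MHC class II transactivator, rose 3.02-fold, Nlrc5, its class I counterpart, rose 1.40-fold, and the guanylate-binding protein gene Gbp5 was 1.85-fold lower (adjusted p = 0.0544 on the AM marker scale). Beside the rise of Irf4, 4 of 8 dependent genes rose and 4 fell. The chemokine genes Ccl17 and Ccl22 rose from 0.906 and 0.57 CPM to 11.2 and 9.57 CPM and from 7.25 and 7.34 to 35 and 31 CPM, while Prdm1, Mrc1 and Chil3 fell 1.55-fold, 1.38-fold and 1.37-fold, the last 2 being AM markers as well. On the AM marker scale 7 of these 8 genes were higher and 1 lower.

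Beside the fall of Irf5, 5 of its 8 dependent genes fell, 2 rose and Ccl4 was not called, with a median log2 fold change of -0.58. Tnf went from 2015 and 2047 CPM to 431.7 and 428.1 CPM, 4.72-fold lower, Il1b from 2040 and 2078 to 1114 and 1091 CPM, and Il23a from 10.2 and 9.11 to 3.4 and 2.7 CPM. Il12a, with 0 and 2 counts in Control and 38 and 57 in Tumor, was at least 11.5-fold higher, and Il12b, which encodes the other interleukin-12 chain and was named after its values were seen, was at 0.373 and 0.506 CPM in Control and 2.6 and 3.51 CPM in Tumor. Of 6 genes that depend on Irf8, 3 rose and 3 fell. Cybb, which encodes the catalytic subunit of the phagocyte NADPH oxidase, changed by -0.70 ± 0.02 on the log2 scale, and Klf4 and Cst3 rose 1.35-fold and 1.27-fold as Il18 and Nf1 fell 1.36-fold and 1.31-fold. On the AM marker scale the counts became 3 higher and 3 lower for the Irf5 list and 5 higher and 1 lower for the Irf8 list. Over the 11 lists, 86 of 119 different genes tested were called, 50 higher and 36 lower. Of all tested genes 53.8% were called, 29.0% higher and 24.8% lower. The markers of other cells given above changed across the same libraries.

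The ISRE in the promoter was set beside these changes. Of 17 interferon-stimulated genes with a RefSeq promoter, 10 held the ISRE, of which 3 rose, 1 fell, 4 were not called and 2 were not tested, and of the 7 without it 3 rose and 4 were not called. An ISRE thus stood before genes that rose, that fell and that were not called. Examples in each direction are Isg15 (chr4:156200856-156200915, minus strand) and Oas3 (chr5:120777700-120777759, minus strand), which rose, and Cxcl10 (chr5:92349068-92349127, minus strand) and the Irf1-dependent Gbp5 (chr3:142496744-142496803, plus strand), which fell. Capitals mark the ISRE on either strand.
Isg15: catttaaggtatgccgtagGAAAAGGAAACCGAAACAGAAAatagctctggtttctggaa
Oas3: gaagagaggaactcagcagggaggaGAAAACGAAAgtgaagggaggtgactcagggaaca
Cxcl10: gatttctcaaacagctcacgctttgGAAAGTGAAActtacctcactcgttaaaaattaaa
Gbp5: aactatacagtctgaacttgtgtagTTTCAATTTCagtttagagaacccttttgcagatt

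Across all tested genes with a RefSeq promoter, 385 held an ISRE, of which 33.8% were called higher and 26.0% lower, with a median log2 fold change of 0.06. Among the 9740 without it, 29.5% were higher and 26.8% lower, with a median of 0.01. No test was made of this difference. Among IRF-dependent genes the ISRE was found for 3 of 8 Irf1-dependent genes with a promoter, for 0 of 6 that depend on Irf4, for 0 of 6 that depend on Irf5 and for 1 of 5 that depend on Irf8, which was Cybb.

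The direction of the smallest IRF differences depended on how libraries were scaled. The factors of TMM, edgeR's default scaling used for all values unless another is named, lay between 0.977 and 1.02, and under total counts, DESeq2 size factors or upper-quartile factors the median of all genes moved between -0.04 and 0.08. When libraries were scaled on the 14 AM markers instead, the median over all genes became 0.56 and 94.4% of calls were higher. On that scale 7 of the 8 IRF genes were called higher, Irf1 at 0.39 and Irf8 at 0.40 among them, and Irf5 was at -0.05 (edgeR adjusted p = 0.386). A change of scaling shifts all genes by nearly the same amount, so a gene's side of the median is nearly fixed in advance. Irf7, Irf9, Irf4, Irf2 and Irf3 lay above the median and Irf1, Irf8 and Irf5 below it, as under TMM. Irf2, Irf4, Irf7 and Irf9 were called higher under each of the 14 alternatives fitted, with log2 fold changes of 0.50 to 1.11, 0.57 to 1.26, 1.97 to 2.69 and 0.86 to 1.62.

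**Figure D5:**
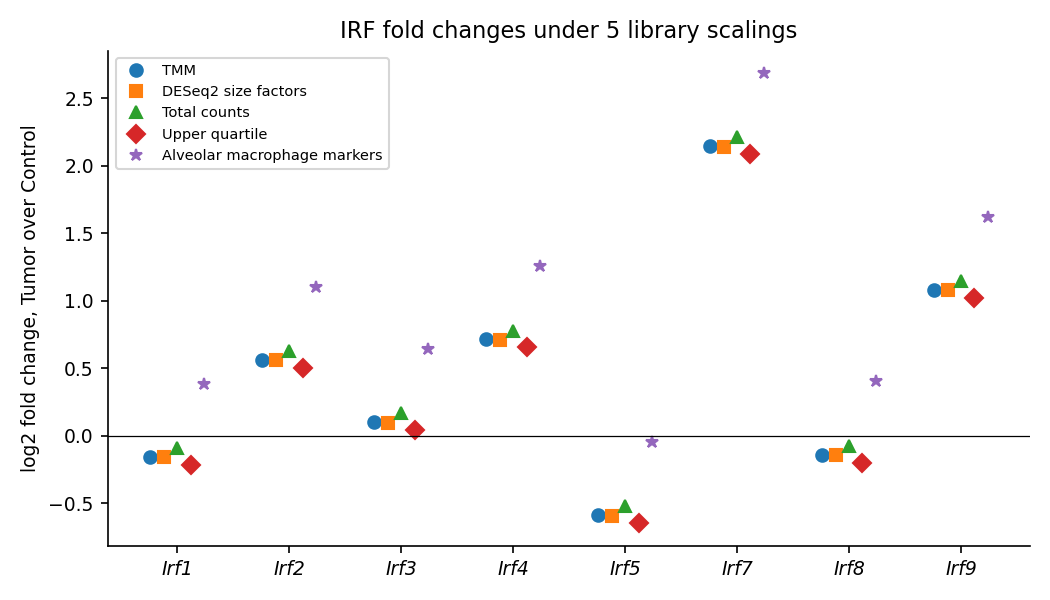
log2 fold change (Tumor over Control) of each IRF gene under 5 ways of scaling the libraries. Irf1 and Irf8 lie below 0 under 4 scalings and above it, at 0.39 and 0.40, when the AM markers set the scale, and Irf7 lies between 2.09 and 2.69 throughout.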

How the data were processed

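Per the labels, TRIzol was used to extract RNA and a NEBNext Ultra RNA kit to make libraries. The submitters' processing notes name HISAT2 2.0.5 and DESeq2, and the study's methods name featureCounts. The authors deposited raw counts (whole numbers, not normalized) for each gene and library, beside a gene length in bases, from which TPM was computed here. The genome build, annotation and strand setting are not given in the sources used here. Coordinates of 98.3% of the 54409 identifiers matched were identical to GENCODE M 21 on GRCm38, with all 8 IRF genes among them. FPKM values of the authors were not analysed here.

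Tests were run in edgeR 4.0.16 under R 4.3.3. Of the genes, 14256 passed filterByExpr (minimum count 10). Libraries were scaled by TMM and tested by glmQLFit and glmQLFTest with group as the only term (2 residual degrees of freedom), with Benjamini-Hochberg adjustment over all genes tested at 0.05. Each SE is |log2 fold change| over the root of F. CPM uses TMM-scaled library sizes, and SDs are over 2 libraries. With 2 libraries per group no exact permutation test can reach 0.05, so the model relies on spread shared across genes. Where both Control libraries had 3 counts or fewer, folds are lower bounds from the lower Tumor CPM and the higher Control floor. Counts were also simulated for 54532 genes of this comparison, with the same small dispersion for every gene and 200 genes changed. There, 95.3% of 107 genes changed by 1 on the log2 scale and 100% of 93 changed by 2 were recovered, and 3.94% of calls were false. In the real data 53.8% of tested genes were called and spread may differ by gene, so these rates do not carry over.

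The members and gene lists were chosen with earlier results of these data known. Genes of the lists were named if on a short list written with them, or if among the 3 largest called rises and falls of a list with a mean count of 100 or more in the group where it was higher. The nearest profiles were given for the members with the largest rise and fall, and the 3 most abundant markers of each list were eligible. Some genes that meet these rules are not reported here. Alternatives used limma 3.58.1 (voom) and DESeq2 1.42.0, other scalings, filters and thresholds, a replicate block and leaving out each library. Intervals and floors cover counting error or the spread between libraries only. Paralogs and overlapping genes may share reads.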

Additional observations from a re-analysis of the deposited data

How the results depend on the processing

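With libraries scaled on the AM markers, log2 fold changes turned positive for Irf1 (0.39), Irf8 (0.40), Chil3 (0.0916), Il18 (0.10), Mavs (0.46), Mrc1 (0.0731), Myd88 (0.33), Nf1 (0.15), Spi1 (0.41) and Tyk2 (0.36). The members then counted 7 higher and 0 lower, and the genes of the 11 pathway lists 92 higher and 11 lower, against 50 and 36. The share of calls that were higher was 53.9% under TMM, 53.5% with DESeq2 size factors, 62.6% with total counts, 46.4% with upper-quartile factors and 94.4% on AM markers. With total counts, 5 members were higher and 1 lower. Requiring a 2-fold change left 2268 genes, 2 members higher and 0 lower, and 21 pathway genes higher and 5 lower. Leaving out 1 library at a time gave 6515 to 7470 called genes against 7671, 4 members higher, 2 to 3 lower (2 without Control replicate 2, where Irf8 lost its call), and 46 to 53 pathway genes higher and 34 to 36 lower, the lone library being assumed to vary like the others. DESeq2's Wald test called 5858 genes, 4 members higher and 2 lower.

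Same-numbered libraries showed no shared deviation (correlation -0.0028), which with 2 libraries per group cannot show whether they were paired. With the replicate block, 7446 genes were called, 4 members higher and 3 lower, and 51 and 36 pathway genes. Depth limits the interferon genes, most of which had no count.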
